A study of Mus musculus with 24 samples.

Results

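The 9 genes described here are known as markers or products of endoderm, and they were followed in mouse embryonic stem cells (mESCs) and their neural derivatives with and without SmcHD1. They are Sox17, Gata4, Gata6, Cer1, Spink3, Lrp2, Dab2, Rbp4 and Trf, 9 of 23119 genes listed. The set was formed because Cer1 and Spink3 were low in SmcHD1-mutant (KO) day 7 cells, so the KO and WT values at day 7 are given as a description, with no test of these genes. The RNA came from JB4/EI7HZ2, a female F1 mESC line from a JF1 mother and a B6 father, and from 1 mutant line that CRISPR–Cas9 editing of Smchd1 gave from it. Both lines carry CAGzeo at Hprt on the JF1 X and IRESneo in Eif2s3x on the B6 X, and the mESC and NSC media are described as holding G418 and Zeocin. Each line was sampled as mESCs kept in serum with 2i and LIF, as day 7 and day 9 cells of a neural differentiation through embryoid bodies that starts in medium with Activin A and FGF2, and as neural stem cells (NSCs) grown with FGF2 and EGF. The NSCs were derived from mESCs by a separate protocol, so they do not follow on from the day 9 cells, though all are called stages below. With 3 replicates in each of the 8 groups there were 24 libraries. WT and KO are 1 line each, so genotype and line cannot be told apart.

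SOX17, GATA4 and GATA6 are transcription factors that act early in endoderm, in the definitive layer that gives the gut and in the extraembryonic layers. CER1 is a secreted antagonist of Nodal, BMP and Wnt signals made by anterior visceral and definitive endoderm, and SPINK3 is a secreted inhibitor of trypsin-like proteases. LRP2 (megalin) is a large endocytic receptor of absorptive epithelia, DAB2 is an adaptor that links such receptors to clathrin, and RBP4 and transferrin (TRF) carry retinol and iron in plasma. Several of the 9 are not particular to endoderm: Lrp2 is also expressed in neuroepithelium, Trf in oligodendrocytes and choroid plexus, and Cer1 in anterior mesendoderm.

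Promoters of 4 of the 9, Cer1, Lrp2, Dab2 and Rbp4, were taken from the RefSeq promoter table (GRCm38.p6). Whether the full table lists the other members was not tested, and nothing is read from their absence here. For these 4, the 250 bases before the first listed start site are printed for the reader to see the sequence beside the values below. They were searched on both strands for GATAA as the letters of a GATA site, ACAAAG as those of a SOX site, TGTTTAC as those of a forkhead site and AATCCACA as those of a FOXH1 site. Matches are in capitals, and no match overlapped another.
Cer1, chr4:82885152-82885401, minus strand: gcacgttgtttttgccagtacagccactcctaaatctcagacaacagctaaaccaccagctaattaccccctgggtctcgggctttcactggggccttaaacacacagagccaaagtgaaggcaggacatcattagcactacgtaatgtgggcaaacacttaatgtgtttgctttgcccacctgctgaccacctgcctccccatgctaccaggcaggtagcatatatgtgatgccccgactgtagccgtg
Lrp2, chr2:69586030-69586279, minus strand: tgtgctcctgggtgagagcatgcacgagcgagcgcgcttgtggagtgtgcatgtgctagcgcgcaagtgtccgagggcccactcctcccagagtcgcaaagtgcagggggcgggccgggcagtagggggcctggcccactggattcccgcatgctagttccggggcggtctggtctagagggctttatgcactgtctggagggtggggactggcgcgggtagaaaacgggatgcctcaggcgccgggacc
Dab2, chr15:6299539-6299788, plus strand: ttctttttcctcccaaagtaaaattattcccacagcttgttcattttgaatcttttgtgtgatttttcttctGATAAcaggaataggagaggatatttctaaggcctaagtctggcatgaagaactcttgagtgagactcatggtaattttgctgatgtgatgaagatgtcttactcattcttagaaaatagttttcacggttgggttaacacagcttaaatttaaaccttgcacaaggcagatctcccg
Rbp4, chr19:38125322-38125571, minus strand: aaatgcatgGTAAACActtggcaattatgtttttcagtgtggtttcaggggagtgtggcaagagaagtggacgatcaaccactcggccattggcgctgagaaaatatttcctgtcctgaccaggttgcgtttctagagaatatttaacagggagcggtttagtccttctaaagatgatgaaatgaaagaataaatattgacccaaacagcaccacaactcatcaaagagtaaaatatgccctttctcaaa
The Dab2 window held GATAA 178 bases before the start, and the Rbp4 window held the forkhead letters, as GTAAACA, 241 bases before it. These letters were not in the windows of Cer1 and Lrp2. The table lists a second start site for Dab2 and for Rbp4, and the windows before those held 0 matches to any of the motifs. Over 32851 promoters of this length, 22.6% held the GATA letters, 16.5% the SOX letters, 3.17% the forkhead letters and 0.718% the FOXH1 letters.

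In the mm9 genome used for the values, Cer1 lies at chr4:82527655-82531055, Sox17 at chr1:4481009-4486494, Gata4 at chr14:63817752-63864097 and Dab2 at chr15:6249789-6390709. Trf lies at chr9:103111206-103132616, Rbp4 at chr19:38191110-38199811 and Lrp2 at chr2:69262392-69424124, and Spink3 and Gata6 are both on chromosome 18. No entry of the table overlapped any of the 9.

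Expression is given in FPKM, in which read fragments are counted per kilobase of a gene's transcript and scaled to the size of the library. Of the 9 genes, 7 had a mean of at least 1 FPKM over the 24 libraries and entered the test of 12105 genes, while Gata4 (mean 0.696) and Gata6 (mean 0.336) did not. Only 4 of the 7 would have entered without their highest group. Cer1 and Sox17 entered through WT day 7 cells, the group that the choice of genes used, and averaged 0.947 and 0.441 FPKM over the other 7 groups. Trf entered through KO NSCs and averaged 0.547 over the others. Counts over the 7 tested genes are therefore descriptions. Relative read numbers worked out from low genes ran from 0.811 to 1.15 with the median library at 1, and FPKM sums from 504660 to 802938. The smallest step above 0 in the median library was 0.869 FPKM for Spink3, 0.124 for Cer1 and between 0.0598 and 0.0897 for Sox17, Gata4, Gata6 and Trf, so low values of these genes rest on few reads. Smchd1 checked the labels: its mean was 13.5 ± 0.502 FPKM (SD, n = 3) in WT and 2.5 ± 0.602 in KO mESCs, and it was lower in KO at every stage. RNA from whole cultures was measured, so fewer cells of a type and less RNA per cell cannot be told apart.

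**Figure D1:**
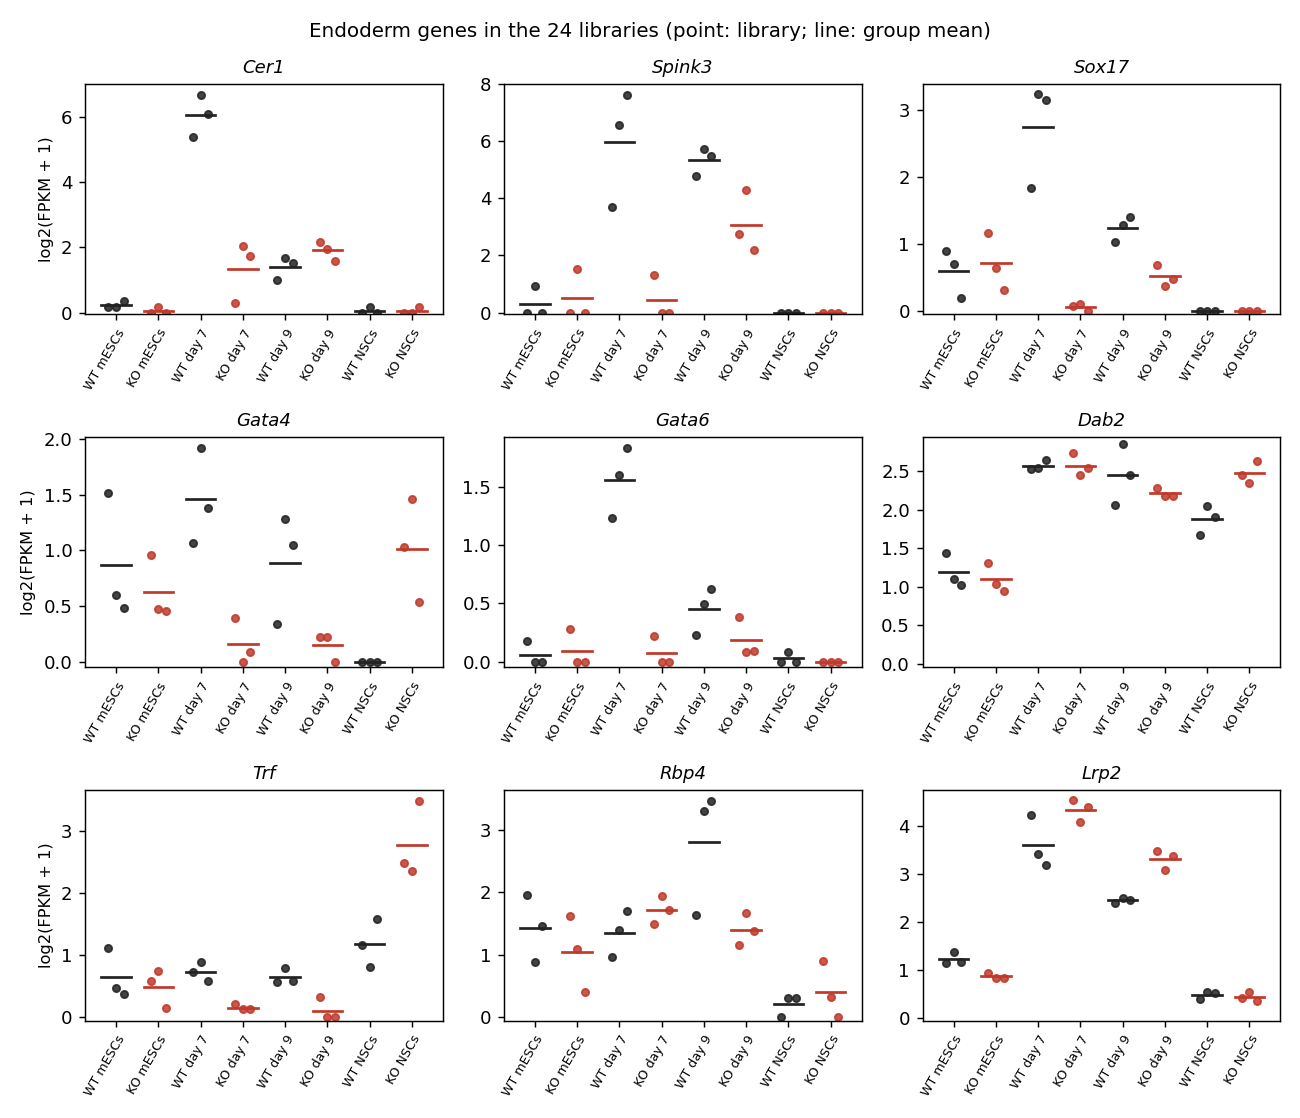
Level of each of the 9 genes, as log2(FPKM + 1), in the WT (black) and KO (red) libraries of the 4 stages, with a point per library and a line at the group mean. Cer1, Spink3, Sox17, Gata4 and Gata6 stand highest in WT day 7 cells, Rbp4 in WT day 9 cells, Trf in KO NSCs and Lrp2 in day 7 cells of both genotypes, and Dab2 group means lie between 2.69 and 4.97 FPKM in all 6 differentiated groups.

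At day 9, Lrp2 was called higher and Rbp4 lower in KO than in WT cells, and in NSCs Trf and Dab2 were called higher in KO. The call was a Benjamini-Hochberg adjusted p under 0.05 in limma on log2(FPKM + 1), and differences below are on that scale, which understates the change of low genes. Of 13 alternative fits, the call held in 13 for Lrp2, 11 for Trf, 7 for Rbp4 and 5 for Dab2. Neither NSC call held with the NSC libraries fitted alone. In mESCs, 0 of the 7 tested genes passed and 0 had an unadjusted p under 0.05, where 0.529% of all tested genes were called. At day 9, 1 rose and 1 fell (6.68% of all genes called), and in NSCs 2 rose (6.02% called, 2.54% as higher). As KO libraries entirely above or below WT, 1 of the 9 genes stood apart in mESCs (11% of tested genes did), 6 at day 7 (24%), 5 at day 9 (32.3%) and 3 in NSCs (16.7%). The day 7 share follows from how the genes were chosen and nothing is read from it.

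Against mESCs of the same genotype, 6 of the 7 were higher in WT day 9 cells (71.5% of all genes called, 36.4% as higher) and 4 in KO day 9 cells (71.3% and 35.7%). Cer1, Spink3, Dab2 and Lrp2 were called in both genotypes, and Sox17 and Rbp4 in WT alone, but the KO effect on that step did not pass for either (adjusted p = 0.369 and 0.483). In NSCs, WT cells had 1 higher and 2 lower (75.2%), and KO cells 2 higher and 2 lower (76%). These 2 sets of comparisons share no libraries, but each shares its mESC libraries across stages. The difference of the KO effect at day 9 from that in mESCs was called for Lrp2 alone of the 7 (2.68% of all genes, 1.32% as higher), and that of NSCs for Trf alone (2.26% and 1.14%).

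**Figure D2:**
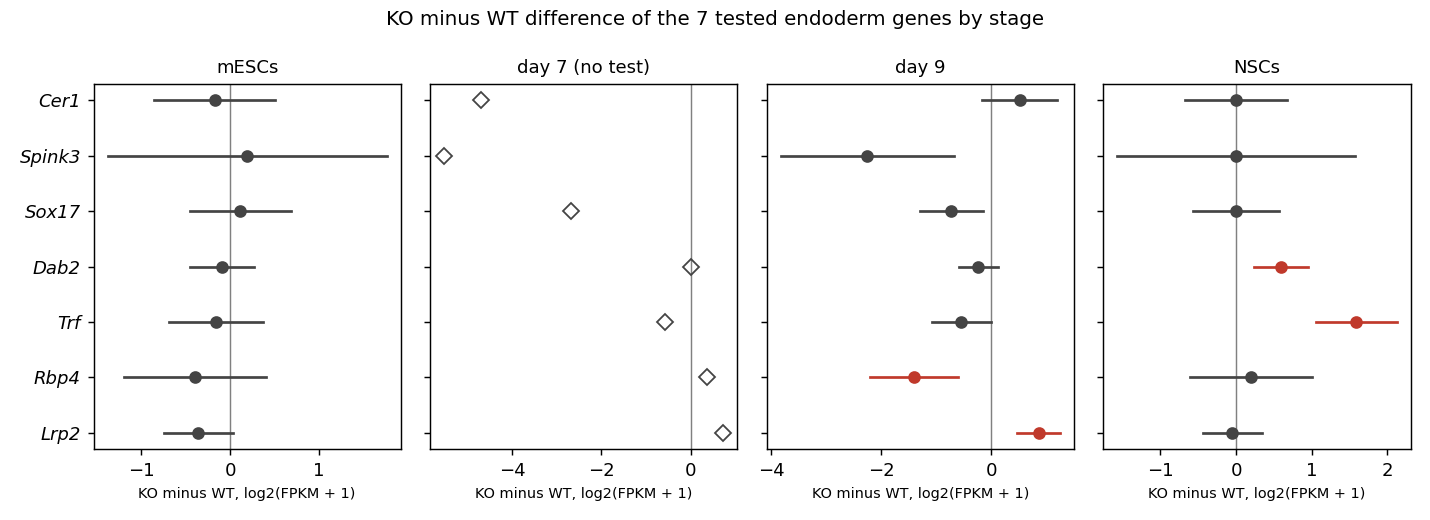
KO minus WT difference in log2(FPKM + 1) of the 7 tested genes at each stage, with bars for the 95% interval of the limma fit and red for an adjusted p under 0.05. Open diamonds at day 7 carry no interval because the genes were chosen on that comparison. Lrp2 (0.85) and Rbp4 (-1.40) pass at day 9, and Trf (1.59) and Dab2 (0.60) in NSCs, but only the Lrp2 call held in all 13 alternative fits.

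Sox17 was present in WT day 7 cells at 2.57, 8.44 and 7.96 FPKM in replicates 1, 2 and 3. KO day 7 cells had 0.0566, 0.0710 and 0 FPKM, at or near the smallest step. Every WT library therefore lay above every KO library at day 7, with a difference of -2.69. By day 9 Sox17 stood at 1.05, 1.44 and 1.65 FPKM in WT and at 0.613, 0.30 and 0.398 in KO. These libraries did not overlap either, but the difference of -0.73 (95% interval -1.29 to -0.16, SE 0.27) was not called (limma adjusted p = 0.135). It was called when the 6 day 9 libraries were fitted alone, without a block (adjusted p = 0.0196) or with one (0.0469), and the range over all alternatives was 0.0196 to 0.347. mESCs of both genotypes held low levels that overlapped, 0.542 ± 0.362 FPKM in WT and 0.686 ± 0.518 in KO (SD, n = 3), and in NSCs Sox17 was listed at 0 in all 6 libraries. WT day 9 cells were above WT mESCs by 0.65 (adjusted p = 0.0391), a call that was kept with no filter on low values (0.0467) and lost without WT mESC replicate 2 (0.0516) or 3 (0.191) and without WT day 9 replicate 2 (0.0835) or 3 (0.113). KO day 9 cells did not pass against KO mESCs (-0.19, adjusted p = 0.541). KO NSCs were below KO mESCs (-0.71, adjusted p = 0.0230, with 0.0283 in the fit with no filter and 0.144 without KO mESC replicate 1). WT NSCs missed the threshold against WT mESCs (-0.60, adjusted p = 0.0530). They were called without WT mESC replicate 3 (0.0212), with these libraries alone (0.0315) and with a pseudocount of 0.1 (-2.47, 0.000296).

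Gata4 and Gata6, whose products bind the same GATA letters, were low throughout. Gata4 at day 7 stood at 1.10, 2.79 and 1.61 FPKM in WT and at 0.312, 0 and 0.0650 in KO. At day 9 the WT values were 0.268, 1.43 and 1.06 FPKM and the KO values 0.169, 0.165 and 0. WT lay above KO at both times without overlap, although WT day 9 replicate 1 was close to the KO libraries. In NSCs the order turned: Gata4 was listed at 0 in all 3 WT libraries and stood at 1.05, 1.76 and 0.449 FPKM in KO. In the fit with no filter on low values, over 18156 genes, this passed narrowly (limma adjusted p = 0.0422), and the day 9 difference did not (-0.74, adjusted p = 0.148). The change of the Gata4 effect from mESCs to NSCs did not pass in that fit (adjusted p = 0.129). Against mESCs, Gata4 was called lower in WT NSCs (-0.87, adjusted p = 0.0113) and not called in KO NSCs (0.38, adjusted p = 0.262). Gata4 and Gata6 were fitted in no other setting, so how far these calls hold was not tested.

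Gata6 had 1.35, 2.03 and 2.57 FPKM in WT day 7 cells and 0.166, 0 and 0 in KO day 7 cells. Its day 9 levels were 0.172, 0.410 and 0.537 FPKM in WT and 0.30, 0.0587 and 0.0649 in KO. Groups were apart at day 7 and overlapped at day 9, where the fit with no filter gave -0.26 (adjusted p = 0.317). In that fit Gata6 was called higher in WT day 9 cells than in WT mESCs (0.39, adjusted p = 0.0133). The KO step was not called (0.09, adjusted p = 0.604), and neither was the change of the KO effect between these stages (adjusted p = 0.553). In mESCs and NSCs its group means were at most 0.0722 FPKM.

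Cer1 group means ran from 69.4 ± 30.3 FPKM (SD, n = 3) in WT day 7 cells down to 0.178 ± 0.0848 in WT mESCs and 0.0387 ± 0.0669 in WT NSCs. The WT day 7 libraries had 40.9, 101 and 66.2 FPKM. The KO day 7 libraries had 0.215, 3.10 and 2.29 FPKM. No KO library came near the WT libraries, and the WT mean was 37.1 times the KO mean, a difference of -4.70. At day 9 WT cells had 1.00, 2.16 and 1.85 FPKM and KO cells 3.50, 2.85 and 2.02. The day 9 groups overlapped, and the difference of 0.51 (SE 0.33) was not called (adjusted p = 0.476) with a 95% interval of -0.17 to 1.19. Both genotypes were above their own mESCs at day 9, by 1.16 in WT (SE 0.33, adjusted p = 0.00333) and by 1.84 in KO (SE 0.33, adjusted p = 3.40e-05). Both were also called in the fit with no filter on low values (0.00499 and 6.73e-05). In descending order of mean, KO day 9, KO day 7 and WT day 9 followed WT day 7, and the ranges of these 3 overlapped from each to the next.

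Spink3 was more variable. The WT day 7 libraries had 12, 93.1 and 196 FPKM, while KO replicate 1 had 1.51 FPKM, about the worth of a pair of reads, and KO replicates 2 and 3 were listed at 0. The lowest WT library was thus above the highest KO library (difference -5.52). At day 9 WT cells kept 26.5, 51.1 and 43.9 FPKM, and KO cells had 5.72, 18.4 and 3.54. The day 9 libraries did not overlap, and the WT mean was 4.40 times the KO mean. The day 9 difference of -2.26 (SE 0.74, 95% interval -3.82 to -0.69) still missed the threshold (adjusted p = 0.0870, range over alternatives 0.0406 to 0.364). It was called without KO day 9 replicate 2, the library with 18.4 FPKM (-2.86, adjusted p = 0.0406). Against mESCs, Spink3 rose by day 9 in WT (5.01, SE 0.74, adjusted p = 9.63e-06) and in KO (2.56, SE 0.74, adjusted p = 0.00514). In mESCs 1 library of each genotype was above 0, and in NSCs all 6 were listed at 0.

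**Figure D3:**
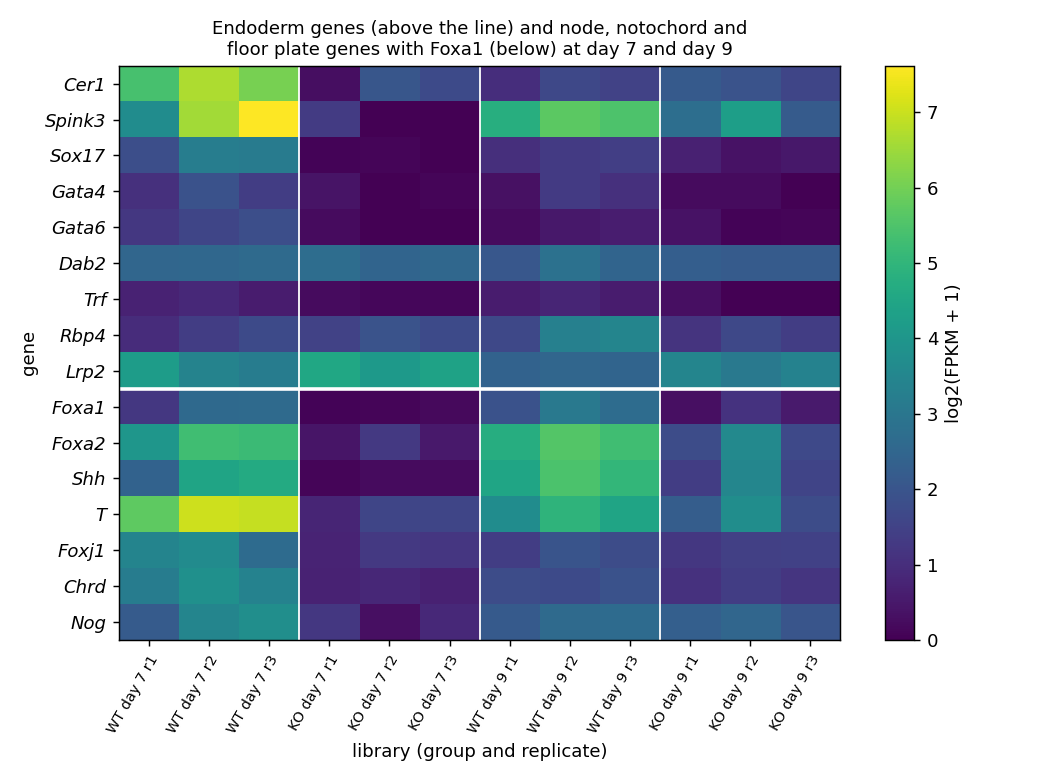
Level, as log2(FPKM + 1), of the 9 endoderm genes (above the line) and of Foxa1, Foxa2, Shh, T, Foxj1, Chrd and Nog (below it) in each day 7 and day 9 library, where r1 to r3 are replicates. Foxa2, Shh and T are high in WT and low in KO at day 7, like Cer1, Spink3 and Sox17, and WT day 7 replicate 1 is the lowest WT day 7 library for each of these 6 genes.

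WT day 7 replicate 1 was the lowest of the 3 WT day 7 libraries for Sox17, Gata4, Gata6, Cer1 and Spink3. It was the highest for Lrp2. For those 5 genes the KO day 7 values lay below replicate 1 as well, which describes the libraries by which the genes were chosen.

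Lrp2, the endocytic receptor, was the member called higher in KO at day 9. In WT day 9 cells it stood at 4.28, 4.68 and 4.51 FPKM, and in KO day 9 cells at 10.1, 7.51 and 9.37. All KO libraries were above all WT libraries and the KO mean was 2.00 times the WT mean. The difference of 0.85 (SE 0.19, 95% interval 0.47 to 1.24) was called (limma adjusted p = 0.00528), also in all 13 alternatives (0.00340 to 0.0414). In mESCs the KO libraries, at 0.906, 0.794 and 0.787 FPKM, lay below the WT libraries at 1.22, 1.58 and 1.24, a difference of -0.36 that was not called (adjusted p = 0.713). The KO effect at day 9 exceeded that in mESCs by 1.21 (SE 0.26, adjusted p = 0.0120), a call lost only with every library scaled to the same FPKM sum (0.0517) among 18 alternatives. At day 7 the WT libraries had 17.6, 9.58 and 8.15 FPKM and the KO libraries 22.2, 15.9 and 19.8, which overlapped. Lrp2 was low in NSCs of both genotypes, 0.403 ± 0.0699 FPKM in WT and 0.355 ± 0.0889 in KO. From mESCs it rose by 1.23 in WT and 2.44 in KO cells by day 9 (adjusted p = 4.95e-06 and 1.51e-10). It fell by 0.74 in WT NSCs (adjusted p = 0.00120). The KO NSC decrease of -0.43 (0.0401) was lost with the same-sum scaling (0.288), without KO mESC replicate 1 (0.0934), 2 (0.0657) or 3 (0.0637), and without KO NSC replicate 1 (0.0805) or 3 (0.101).

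Dab2 was expressed in every library. Day 7 levels were 4.75, 4.84 and 5.23 FPKM in WT and 5.65, 4.44 and 4.81 in KO, which overlapped with a difference of 0.00 to 2 decimals. At day 9 they were 4.61 ± 1.54 FPKM in WT and 3.63 ± 0.179 in KO, a difference of -0.24 that was not called (adjusted p = 0.549, 95% interval -0.60 to 0.12). In NSCs WT libraries had 2.18, 3.14 and 2.76 FPKM and KO libraries 4.49, 4.08 and 5.19. The KO NSC libraries were all higher, and the difference of 0.60 (SE 0.17, 95% interval 0.24 to 0.96) was called by a small margin (adjusted p = 0.0394). It was called in 5 of 13 alternatives, with p from 0.0348, with the replicate block over 24 libraries, to 0.227, with the block on the NSC libraries alone. The call was lost without WT NSC replicate 1 (0.0942) or 3 (0.0838) and without KO NSC replicate 1 (0.0816), 2 (0.0585) or 3 (0.179). Against mESCs, Dab2 rose at day 9 by 1.26 in WT and 1.11 in KO, and in NSCs by 0.69 in WT and 1.38 in KO, with adjusted p from 2.17e-07 to 0.00106.

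Rbp4 peaked in WT day 9 cells, where the libraries had 2.12, 8.91 and 10.0 FPKM. KO day 9 cells had 1.23, 2.17 and 1.60 FPKM. WT replicates 2 and 3 were well above KO, while WT replicate 1 lay just below the highest KO library. The difference of -1.40 (SE 0.39, 95% interval -2.21 to -0.60) was called (adjusted p = 0.0283), in 7 of 13 alternatives (0.000421 to 0.230). It was lost without WT day 9 replicate 2 (0.182) or 3 (0.186), without KO day 9 replicate 1 (0.134) or 3 (0.0791), with a pseudocount of 0.1 (0.230) and with the 6 day 9 libraries alone (0.125). Day 7 levels were 0.964, 1.63 and 2.25 FPKM in WT and 1.82, 2.86 and 2.28 in KO, with overlap. Rbp4 rose by 1.37 from WT mESCs to WT day 9 cells (adjusted p = 0.00331) and fell by 1.22 in WT NSCs (adjusted p = 0.00691), and neither KO comparison passed (adjusted p = 0.409 and 0.143). The KO NSC decrease was called with a pseudocount of 0.1 (0.0455) and without KO mESC replicate 3 (0.0439). Ttr, whose product carries RBP4 in plasma, was listed at 0 in WT day 9 replicate 1 and stood at 1.20 and 0.526 FPKM in replicates 2 and 3, with 0, 0.172 and 0 in KO. Of the 13 listed primitive and visceral endoderm genes, KO lay entirely below WT at day 9 for 3 (Pdgfra, Apoa1 and Apob) and entirely above it for 1 (Apoe, with means of 169 FPKM in KO and 132 in WT), and 9 overlapped, Ttr among them, where 32.3% of tested genes stood apart. Ttr was looked at after its values were seen, and the part of such cells in the Rbp4 values was not tested.

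Trf was low except in NSCs. The WT NSC libraries had 1.25, 0.755 and 1.99 FPKM and the KO NSC libraries 4.62, 4.13 and 10.2. The KO libraries were all higher, with a mean 4.74 times that of WT. The difference of 1.59 (SE 0.26, 95% interval 1.06 to 2.12) was called (adjusted p = 0.000445), also in each of 6 fits without 1 of these libraries. Trf passed the filter on low values only because of the high KO NSC libraries, so the difference was also taken from the fit with no filter, where it was called (adjusted p = 0.000539). It was not called when the 6 NSC libraries were fitted alone, without a block (0.142) or with same-numbered WT and KO libraries as a block (0.0829). The effect in NSCs exceeded that in mESCs by 1.75 (SE 0.36, adjusted p = 0.0120), lost with a pseudocount of 0.1 (0.0959) and with only the libraries of the comparison (0.151). At day 7 Trf stood at 0.659, 0.856 and 0.502 FPKM in WT and at 0.156, 0.0976 and 0.0974 in KO, and at day 9 at 0.483, 0.741 and 0.503 in WT and at 0.253, 0 and 0 in KO. KO was below WT without overlap at both times, all under 1 FPKM, and the day 9 difference of -0.54 was not called (adjusted p = 0.275, and 0.0291 with a pseudocount of 0.1). From KO mESCs to KO NSCs Trf rose by 2.28 (adjusted p = 4.45e-08, and 9.62e-08 with no filter). In WT the NSC level missed the threshold (0.53, adjusted p = 0.0650), and it was called with same-sum scaling (0.0171) and without WT mESC replicate 1 (0.0142) or WT NSC replicate 2 (0.0247). Summed markers of the oligodendrocyte lineage, where Trf is known, ran from 1138 to 1264 FPKM in WT NSCs and from 1285 to 1517 in KO NSCs, with Mag at 0 in both. Olig1, a factor of oligodendrocyte progenitors, made up nearly all of the sum (means of 1121 FPKM in WT and 1369 in KO), and of 4 tested markers 2 were lower in KO (Cnp and Sox10) and 0 higher. Choroid plexus markers summed to at most 8.54 FPKM in NSCs, with Ttr at 0. The part of either in the Trf values was not tested.

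Other genes of the same biology were taken by list, and at day 7, where the libraries are those that chose the members, the counts are a description. Of 12 definitive and anterior endoderm genes 10 were tested, and at day 7 KO cells had 7 lower (Eomes, Foxa1, Foxa2, Gsc, Hhex, Lhx1 and Shh) and 1 higher (Otx2), where 3.68% of all genes were called. Their median difference was -1.55, beside -0.000524 for all genes. Foxa2, a forkhead factor of endoderm, node and floor plate, had 15.1, 37.8 and 35.9 FPKM in WT day 7 cells and 0.344, 1.40 and 0.431 in KO (-4.09). Shh, a signal made by notochord, floor plate and gut endoderm, had 4.27, 21.0 and 24.2 FPKM in WT and 0.0672, 0.169 and 0.168 in KO (-3.66). At day 9, 3 stayed lower (Foxa1, Foxa2 and Shh) and 1 higher (Otx2), with a list median of -0.46. Foxa2 then had 25.7, 46.7 and 38.1 FPKM in WT and 2.42, 11 and 2.22 in KO (-2.85, limma adjusted p = 7.10e-05), and Shh differed by -2.85 (adjusted p = 0.000423). In NSCs Foxa1 and Gsc were called higher in KO. Both were listed at 0 in all 3 WT NSC libraries, with KO values of 0.911, 1.76 and 1.62 FPKM for Foxa1 and 1.08, 2.12 and 1.84 for Gsc, beside the Gata4 values in the same libraries. Foxa2 was also listed at 0 in WT NSCs and averaged 1.48 FPKM in KO NSCs without overlap, but it was not called.

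Of 13 primitive and visceral endoderm genes 3 were tested by limma, and 0 were called between KO and WT at any stage (1 had an unadjusted p under 0.05, in NSCs), with Pdgfra at -0.48 and Apoa2 at 0.40 at day 7 (adjusted p = 0.655 and 0.750), and Pdgfra at -0.68 and Apoe at 0.36 at day 9 (0.360 and 0.866). The summed list ran from 191 to 268 FPKM in WT day 7 cells and from 216 to 278 in KO, and most of it was Apoe (mean 222 FPKM in WT), which many cell types express. In the WT day 7 libraries Apoa2 averaged 5.05 FPKM and Pdgfra 1.68, Afp and Apoa4 were listed at 0 in all 3, and Ttr, Hnf4a and Apob were at most 0.21 FPKM. Of 9 genes of the parietal endoderm matrix 8 were tested, with 1 lower in KO at day 7 (Lama1, -0.65) and 4 lower at day 9 (Col4a1, Lama1, Lamb1 and Nid1). Col4a1, a basement membrane collagen chain, differed by -1.18 at day 9 (adjusted p = 0.00309) and Lamb1, a laminin chain, by -0.88 (0.00253).

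Among 13 other endocytic receptors, adaptors and carrier partners, 9 were tested, with 1 lower in KO at day 7 (Stra6), 1 at day 9 (Lrp8), 1 in NSCs (Vldlr) and 0 higher. Stra6, a membrane receptor for RBP4, differed by -0.94 at day 7, and Tfrc, the receptor of transferrin, by -0.48 (adjusted p = 0.565). Lrp8, of the same receptor family as Lrp2, differed by -0.47 at day 9 (adjusted p = 0.0408), and its relative Vldlr (-0.88, adjusted p = 0.0844) was not called then. Of 13 secreted antagonists and their ligands 11 were tested. The Wnt antagonist Dkk1 (-3.08), the BMP antagonist Chrd (-2.71) and Nog were lower in KO at day 7. At day 9, 3 were higher (Lefty1, Lefty2 and Wnt3) and 1 lower (Sfrp1), with Wnt3 at 2.23 (adjusted p = 8.02e-07) and Sfrp1 at -1.98 (adjusted p = 9.51e-05).

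**Figure D4:**
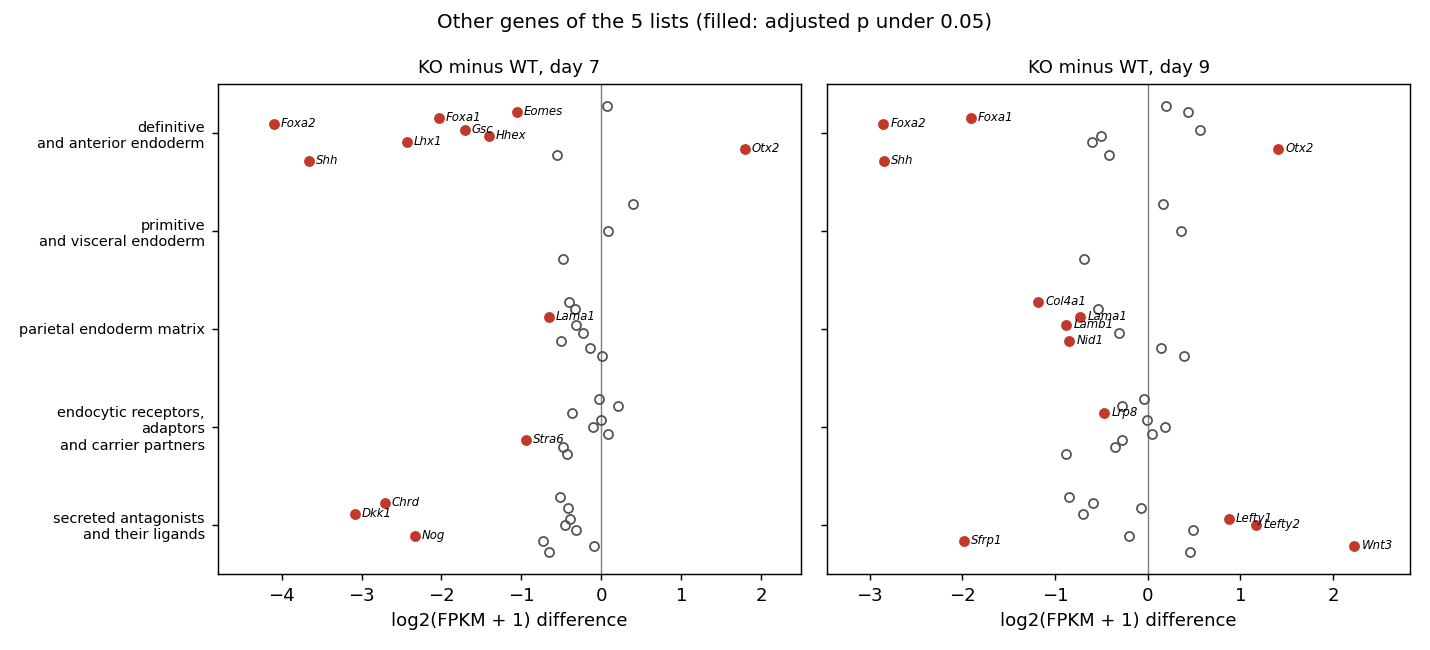
KO minus WT difference in log2(FPKM + 1) at day 7 and day 9 of the other tested genes in the 5 lists, with a point per gene and filled, named points for an adjusted p under 0.05. Of the definitive and anterior endoderm genes 7 are lower at day 7 and 3 at day 9, while none of the primitive and visceral endoderm genes is called at either time.

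Some mesoderm and axial genes were also lower in the KO day 7 libraries. The 6 mesoderm markers together ran from 64.5 to 163 FPKM in WT day 7 cells and from 4.13 to 7.63 in KO, with T the largest part of the WT sum. The 3 that were tested were lower in KO (Meox1, Snai1 and T), and Tbx6, Mesp1 and Hand1 overlapped. A list of 7 node, notochord and floor plate genes, drawn up after the values were seen, summed to between 98.0 and 234 FPKM in WT day 7 cells and to between 3.82 and 6.35 in KO, and 6 of 6 tested were lower (3.68% of all genes called). Counts over this list are descriptions, since its genes were chosen with these values known. T, a factor of primitive streak and notochord, had 52.1, 132 and 124 FPKM in WT and 0.719, 2.03 and 2.03 in KO at day 7. At day 9 this list summed to between 66.8 and 130.4 FPKM in WT and between 12.7 and 41.6 in KO, with 3 of 6 lower (Foxa2, Shh and T), where 6.68% of all genes were called. The part of other cell types in the values of the 9 genes was not tested. Summed neural markers at day 9 ran from 631 to 760 FPKM in WT and from 851 to 980.4 in KO, beside the higher Lrp2 of these KO libraries. The largest part of the sum was Fabp7, a fatty acid binding protein of radial glia, with means of 363 FPKM in WT and 538 in KO (0.56, adjusted p = 0.209, not called). Of the 6 neural markers 2 were called higher in KO (Pax6 and Sox1) and 1 lower (Olig2, 6.04 FPKM in WT and 1.84 in KO), and Nes averaged 110 FPKM in WT and 83.8 in KO without overlap (adjusted p = 0.482). The part of these cells in the Lrp2 values was not tested. Pluripotency markers overlapped at day 7 (279 to 435 FPKM in WT and 280 to 425 in KO) and at day 9 (57.7 to 85.8 and 74.4 to 121). Cardiac sums at day 9 ran from 1.89 to 12.4 FPKM in WT and from 0.0771 to 0.974 in KO, with Hand2 and Tnnt2 at 0 in KO. Tbx5 went the other way, at 0 in WT and a mean of 0.0490 FPKM in KO. At day 7 the cardiac sums overlapped, from 0.804 to 2.96 FPKM in WT and from 1.46 to 1.93 in KO. Endothelial sums at day 7 ran from 15.0 to 20.4 FPKM in WT and from 6.21 to 9.44 in KO, with Emcn at 0 in KO, and macrophage sums were at most 3.82 at day 7 and day 9.

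Over the 24 libraries the tested genes whose log2(FPKM + 1) ran most like Cer1 were Aplnr (Pearson r = 0.957), Samd3 (0.955), Cfc1 (0.932), Dkk1 (0.929) and Thsd4 (0.912). Aplnr, the apelin receptor, averaged 25.2 FPKM in WT day 7 cells and 0.560 in KO day 7 cells, and Cfc1, a Nodal co-receptor, 12.1 and 0.662. The genes most like Spink3 were Nkx2-9 (0.971), Lmx1a (0.966), Gli1 (0.965), Shh (0.956) and Gal (0.945). Nkx2-9 averaged 42.9 FPKM at day 7 and 34.3 at day 9 in WT, and 0.263 and 7.49 in KO, while Lmx1a averaged 4.09 and 2.22 FPKM in WT. Among the members themselves, r was 0.945 between Sox17 and Gata6, 0.916 between Cer1 and Gata6 and 0.761 between Cer1 and Spink3, and -0.600 between Trf and Lrp2. These correlations are descriptions across libraries that share group and stage.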

How the data were processed

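Poly(A) RNA was sequenced (single-end, stranded libraries). The authors trimmed reads (Trim Galore 0.6.6), aligned them to mm9 (TopHat2 2.1.1), removed ribosomal RNA and chrX reads and ran Cuffdiff, and the deposited values are FPKM per gene and library. Library normalization in Cuffdiff and strand use in counting are not given in the sources used here. Of 36 FPKM columns, 12 belong to no sample analysed here and were not used.

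The members and gene lists were chosen with earlier results of these data known. Genes off X and Y with a mean of at least 1 FPKM (12105) were tested with limma 3.58.1 in R 4.3.3 (statmod 1.5.0): log2(FPKM + 1), 8 groups, no intercept, trended and robust eBayes, two-sided tests, Benjamini-Hochberg adjustment over all tested genes. The fit was tested on simulated data. Of 31400 values of low genes, 95.5% were whole multiples of a step within 2% (0.02 as a share), which gave relative depth. P-values of the main fit rest on a spread between replicates pooled over all 8 groups of 3, not on that of 1 comparison. Each genotype is 1 line.

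Named were the 9 members, Smchd1, in each of 5 lists the 2 genes with the largest KO minus WT difference at day 7 and at day 9, and the 5 genes most correlated with Cer1 and with Spink3; other names in the lists are those called, or were chosen after their values were seen. Some genes of the lists are not reported here. Replicate numbers come from the labels. Deviations from group means of same-numbered WT and KO libraries correlated at 0.289, 0.435 and 0.141 in mESCs and 0.335, 0.184 and 0.240 in NSCs. This was read as pairing there, and not at day 7 or day 9. The reported tests still used no replicate block, which was fitted only as an alternative. Alternatives were another pseudocount, no filter, other scalings, the libraries of a comparison alone, a replicate block and leaving out each library.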

Additional observations from a re-analysis of the deposited data

Results flagged for a closer look

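In 2 cases the KO effect of a gene differed between stages by a test of the difference itself. For Lrp2 the effect at day 9 minus that in mESCs was 1.21 on the log2(FPKM + 1) scale (95% interval 0.66 to 1.76, limma adjusted p = 0.0120): KO was above WT in 3 of 3 libraries at day 9 and below it in 3 of 3 in mESCs. The call was lost with every library scaled to the same FPKM sum (0.0517). For Trf the effect in NSCs minus that in mESCs was 1.75 (95% interval 1.00 to 2.5, limma adjusted p = 0.0120), with KO above WT in 3 of 3 libraries in NSCs and overlap in mESCs. Trf passed the filter on low values only through KO NSCs, and with no filter the difference was also called (adjusted p = 0.0124). It was not called with a pseudocount of 0.1 (0.0959) or with only the libraries of the comparison (0.151). The causes of both were not tested.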

How the results depend on the processing

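Of 861 refits of single members, 818 kept their side of the threshold, 30 lost a call and 13 gained one. Of the 818, 792 kept their sign and 26, none of them called, changed sign or went to 0. No called difference changed sign. Genes called between KO and WT in mESCs (64) became 164 with no filter, 42 with same-sum scaling, 1 with those libraries alone and 98 with the replicate block. At day 9 (809) they became 1221 with no filter and 1377 alone, and in NSCs (729) 58 alone and 1145 with the block. For the difference of effects they became 165 with a pseudocount of 0.1 and 537 with no filter at day 9 (324), and 57 alone and 504 with the block in NSCs (274). Members called in NSCs (2) were 1 with a pseudocount of 0.1 and 0 alone, and for the NSC difference of effects (1) they were 0 in both. For KO versus WT, the replicate block was also fitted on each stage's own libraries, an alternative chosen after seeing the data: it called 6 genes in mESCs and 12 in NSCs, with 0 members in each. At day 7 it called 519 genes, and of the members at day 9 it called Sox17 (limma adjusted p = 0.0469), Rbp4 (0.0467) and Lrp2 (0.00948). With 24 libraries the block changed no member's call in mESCs or NSCs (Trf 0.000149, Dab2 0.0348). At day 7 and day 9 numbers did not pair the libraries, and the block called Rbp4 (0.0122) and Lrp2 (0.00383).

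Leaving out 1 library gave 20 to 112 genes in mESCs, 273 to 521 at day 7, 449 to 752 at day 9 (members 1 to 3) and 406 to 1352 in NSCs (members 1 to 2). The differences of effects gave 181 to 360 and 146 to 607 genes. Between stages, members called ran from 5 to 6 (WT day 9), 3 to 4 (WT NSCs) and 2 to 4 (KO NSCs). Scaling all libraries to the same FPKM sum moved the all-gene median between stages by up to 0.43 and the share of higher calls from 48.1%–50.9% to 63.3%–69.1%; at day 9 the share between KO and WT went from 38.6% to 22.7%, in NSCs it went from 42.2% to 54.4%, and for the differences of effects from 49.4% to 36.4% and from 50.4% to 61.7%. Reads per library were not used here, and values near the smallest step are not resolved.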
